A study of Mus musculus with 46 samples.

Results

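The genes of cholesterol and fatty acid synthesis were followed through T cell development in mice that over-express LMO2 and in wild-type mice. The set held 32 genes, chosen by name from the 19521 genes of the deposited RNA table, and all 32 were found there once. They comprised 7 genes of the mevalonate steps, 11 of the steps leading onward from farnesyl diphosphate to cholesterol, 4 regulators, 3 genes of sterol transport and efflux and 7 of fatty acid synthesis and desaturation. They were chosen for their known functions, with earlier results of these data known.

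All mice were of the C57BL/6 strain. TG mice carried the allele labelled hCD2-LMO2 knock-in, whose name joins human CD2, a T-lineage gene, to LMO2, a bridging protein of blood stem cell transcription complexes; the construct is not described further in the sources used here. WT mice were labelled wild type. Sorted thymic populations of TG and WT mice were DN1 cells, a mixture of all DN cells (called DN here), DN3 cells, DP cells, CD4SP cells and CD8SP cells. Splenic CD4+ and CD8+ T cells were profiled from TG mice only in the libraries used here. DN cells lack CD4 and CD8, DN1 and DN3 are an early and a later step within them, DP cells carry both coreceptors, and single-positive (SP) cells carry one. Each of the 14 groups had 3 libraries, except WT DN1 with 1, making 24 TG and 16 WT libraries. The labels do not give the animals' age or sex or say whether the libraries of a group came from separate animals, so p-values measure the spread between these libraries. Library totals ran between 17211426 and 28842773 counts.

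Cholesterol is built from acetyl-CoA through mevalonate, isoprenoids and squalene, and fatty acids are built from the same precursor by carboxylation, chain synthesis, elongation and desaturation. The transcription factors SREBP-2 and SREBP-1, encoded by Srebf2 and Srebf1, are held in the endoplasmic reticulum by SCAP and INSIG proteins when sterols are plentiful and travel to the nucleus when sterols are scarce, where they switch on these enzymes. Dividing lymphocytes need both lipids for new membrane, and the efflux pumps ABCA1 and ABCG1, targets of the LXR receptors, carry sterol out of the cell.

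The stretch just upstream of the start site is shown for 4 members that the results below turn on, the regulator Srebf2, the early enzymes Hmgcs1 and Idi1 and the desaturase Fads2, because promoters of this pathway are known to pair an SREBP element with CCAAT boxes. Each stretch runs 5′ to 3′ on the gene's own strand from position -150 to -1 before the start, from the RefSeq promoter table of build GRCm38.p6, in which 24 of the 32 members were found. Capitals mark the CCAAT box (CCAAT, or ATTGG where it lies on the other strand) and the SREBP element searched as TCACNCCAC.
Srebf2 (chr15:82147119-82147268, plus strand): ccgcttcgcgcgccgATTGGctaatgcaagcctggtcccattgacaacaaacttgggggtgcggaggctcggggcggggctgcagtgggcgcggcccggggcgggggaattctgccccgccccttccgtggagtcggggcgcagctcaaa
Hmgcs1 (chr13:119690201-119690350, plus strand): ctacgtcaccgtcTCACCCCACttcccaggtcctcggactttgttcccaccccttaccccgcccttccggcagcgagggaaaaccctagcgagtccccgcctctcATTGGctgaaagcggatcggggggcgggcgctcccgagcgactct
Idi1 (chr13:8885456-8885605, plus strand): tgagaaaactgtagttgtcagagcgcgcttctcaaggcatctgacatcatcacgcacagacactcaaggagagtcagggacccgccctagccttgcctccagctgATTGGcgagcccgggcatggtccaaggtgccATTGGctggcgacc
Fads2 (chr19:10101504-10101653, minus strand): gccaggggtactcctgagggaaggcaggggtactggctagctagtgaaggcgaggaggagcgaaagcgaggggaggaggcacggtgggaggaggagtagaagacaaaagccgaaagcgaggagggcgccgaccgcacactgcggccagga
Hmgcs1 held the SREBP letters beginning 137 bases before its start and a CCAAT box 45 bases before it. Idi1 held CCAAT boxes beginning 45 and 14 bases before its start, Srebf2 held one 135 bases before its start, and the Fads2 stretch held neither motif. Over windows of 300 bases (250 before and 50 after the start, both strands), CCAAT lay in 19 of the 30 windows listed for the matched members, which is 63.3%, against 37.4% of all 32851 windows in the table. TCACNCCAC lay in 1 member window, that of Hmgcs1, and in 1.24% of all windows. CACGTG, which some SREBP and MYC sites share, lay in 7 member windows or 23.3%, against 7.15% of all windows. CAGNTG, the E-box class bound by the basic helix-loop-helix partners of LMO2 complexes, lay in 15 or 50% of member windows, against 51.4% of all windows. Several members have more than one listed start and their windows can overlap, and these matches describe letters, not binding sites.

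Several libraries departed from their labels. All levels below are in CPM (counts scaled by library size). Lmo2 was at 26.2, 20.4 and 19.2 CPM in TG DN3, against 0.295, 0.226 and 0.217 in WT DN3. It was likewise higher in each TG library than in the WT libraries of its population in DN, CD4SP and CD8SP cells. The exception among later thymocytes was TG DP replicate 3 at 0.397 CPM, beside 80.6 and 71.9 CPM in the other TG DP libraries and 0.122 to 0.479 CPM in WT DP. In DN1 cells both genotypes held Lmo2, at 35.1, 37.4 and 44.2 CPM in TG and 30.7 CPM in WT. The TG CD4SP libraries carried markers of other stages. Cd4 was only 191 CPM in replicate 1, where Il2ra was at 349 CPM. Replicates 2 and 3 held 3069.6 and 825 CPM of Cd8a and 6438 and 2274 CPM of Rag1, against 43.5 to 146 CPM of Cd8a and 48.7 to 292 CPM of Rag1 in WT CD4SP. In CD8SP cells Cd4 was at 1412 CPM in TG replicate 3 and 843 CPM in WT replicate 3. Red-cell markers summed to 27713 CPM in TG splenic CD4 replicate 3 and to 10506 CPM in WT DN replicate 3. In bulk libraries fewer cells of a type and less RNA per cell cannot be told apart.

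Summed over the 18 enzymes of the mevalonate and later steps, cholesterol synthesis transcripts were at 442 ± 17.4 CPM in TG DN1 (SD, n = 3) and at 392 CPM in the WT DN1 library. They reached 1035 ± 149 CPM in TG DN, 919 ± 159 in WT DN, 989 ± 117 in TG DN3 and 1014 ± 63.6 in WT DN3. They were 680.2 ± 69.9 CPM in TG DP and 549.9 ± 21.3 in WT DP, 742 ± 163 in TG CD4SP and 442 ± 52.5 in WT CD4SP, and 953 ± 94.6 in TG CD8SP and 712 ± 65.1 in WT CD8SP. Splenic T cells of TG mice held 597 ± 60.03 CPM in TG splenic CD4 and 449 ± 15.97 CPM in TG splenic CD8 cells. In the order of the means, TG DN, WT DN3 and TG DN3 were the highest neighbours and lay within each other's spread, and TG splenic CD8, WT CD4SP and TG DN1, at the low end with WT DN1, likewise lay within each other's spread.

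**Figure D1:**
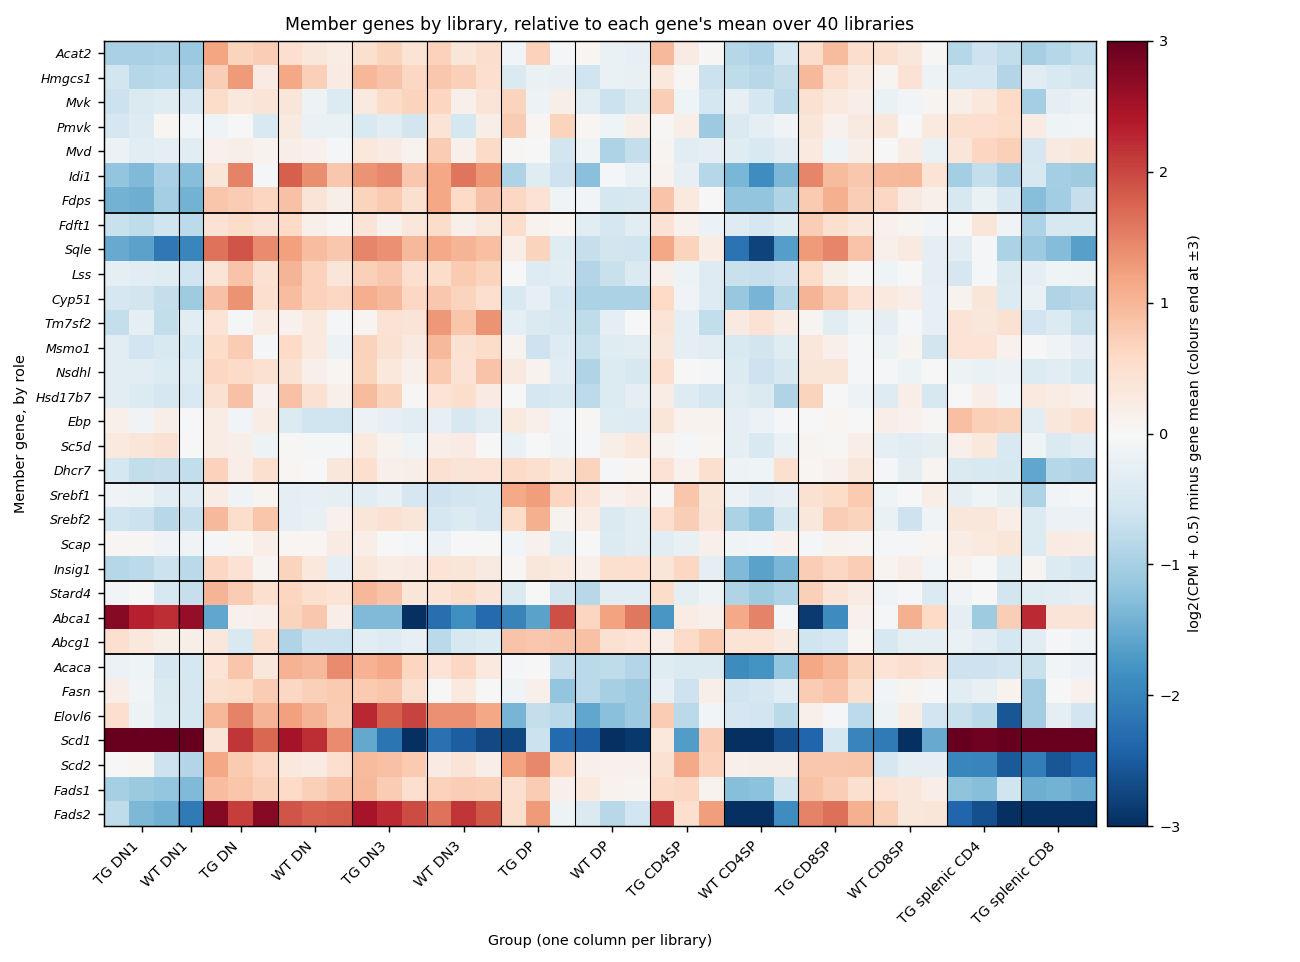
Heat map of the members (rows, by role: mevalonate steps, later cholesterol steps, regulators, transport and efflux, fatty acid genes) in 40 libraries (columns, by group). Colour is log2(CPM + 0.5) minus the gene's mean over the libraries; most cholesterol enzymes are red in DN and DN3 cells and blue in DN1, WT DP, WT CD4SP and TG splenic CD8 cells, Scd1 is red in DN1, DN and splenic cells, and Abca1 is reddest in DN1.

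Most enzymes varied together across libraries, while several members did not follow them. Across the 40 libraries the log2 level of Sqle, squalene epoxidase, tracked the summed level of the other cholesterol enzymes with r = 0.95, followed by Fdps, farnesyl diphosphate synthase, at 0.94, Cyp51, lanosterol demethylase, at 0.91, and Fdft1, squalene synthase, at 0.91. The fatty acid desaturases Fads2 (0.89) and Fads1 (0.88) and the sterol carrier Stard4 (0.87) lay nearly as close. Srebf2 tracked it less (0.55), Scap, the escort of the SREBPs (0.10), Srebf1 (0.09) and Pmvk, phosphomevalonate kinase (0.07), hardly, and Ebp, sterol isomerase (-0.26), Scd1 (-0.33), Abcg1 (-0.48) and Abca1 (-0.73) ran against it. Within genotypes, Srebf1 had r = 0.26 over the 24 TG and -0.39 over the 16 WT libraries. Scd1 had -0.68 over the TG and 0.11 over the WT libraries. These coefficients describe libraries that share population, genotype and depth, and the sum itself had r = 0.664 with the summed level of 10 dividing-cell markers.

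Compared per transcript length, in the authors' FPKM, Scd2, a stearoyl-CoA desaturase, was the most abundant member in WT DN3 cells at 161 ± 9.43 (SD, n = 3). It was followed by Fdps at 113 ± 21.3, Fads2 at 76.6 ± 13.4, Srebf2 at 64.6 ± 4.18 and Dhcr7, the last reductase of the pathway, at 64.4 ± 2.08. Srebf2 and Dhcr7 lay within each other's spread. Between its lowest and highest library, Scd1 ranged between 0.3502 and 699 CPM, Fads2 between 1.03 and 177, Abca1 between 2.06 and 207, and Sqle between 4.51 and 127, while Scap ranged only between 92.7 and 159.

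WT DP cells were set against WT DN3 cells to follow the set through normal development. In this and the later comparisons a gene is called where its p in the quasi-likelihood test of edgeR, adjusted over all genes tested by the method of Benjamini and Hochberg, was under 0.05. Of the 32 members 20 fell and 3 rose, in a comparison that called 60% of 11953 genes (31.4% down and 28.6% up), and the members' median log2 fold change was -0.91 against -0.02 over all genes. Among the mevalonate steps 6 of 7 fell and among the later cholesterol steps 8 of 11.

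Idi1, isopentenyl diphosphate isomerase, was at 19.7, 46.03 and 41.1 CPM in WT DP, against 107, 144 and 116 CPM in WT DN3 (log2 fold change -1.80 ± 0.27 SE, adjusted p = 0.000487). Sqle was at 20.6, 22.9 and 22.4 CPM in WT DP, against 74.4, 68.7 and 63.9 CPM in WT DN3 (log2 fold change -1.66 ± 0.13 SE, adjusted p = 1.07e-05). Cyp51 stood at 24.3, 24.1 and 24.1 CPM in WT DP, against 82.7, 75.99 and 66.9 CPM in WT DN3 (log2 fold change -1.64 ± 0.14 SE, adjusted p = 1.53e-05). In all 3 genes every WT DP library lay below every WT DN3 library. Hmgcs1, which makes HMG-CoA, fell by 1.02 on the log2 scale. Lss, lanosterol synthase (-1.36), Tm7sf2, a sterol reductase (-1.63), Nsdhl, a sterol dehydrogenase (-1.32), Fdps (-1.26) and Msmo1, methylsterol monooxygenase (-1.16), were among the others that fell, in log2 fold change.

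Of the 7 fatty acid genes 5 fell. Elovl6, an elongase of saturated chains, was at 10.2, 12.8 and 14.3 CPM in WT DP, against 80.5, 81.4 and 70.3 CPM in WT DN3 (log2 fold change -2.65 ± 0.16 SE, adjusted p = 2.08e-06), the largest fall of any member in this comparison. Fads2, the delta-6 desaturase, was at 18.9, 14.1 and 17.1 CPM in WT DP, against 80.6, 115 and 95.04 CPM in WT DN3 (log2 fold change -2.53 ± 0.19 SE, adjusted p = 7.45e-06). Acaca, acetyl-CoA carboxylase, had a log2 fold change of -1.27. Scd2 stood at 719, 709 and 709.6 CPM in WT DP, against 766, 843 and 748 CPM in WT DN3 (log2 fold change -0.14 ± 0.14 SE, adjusted p = 0.41), and Scd1 was at or under 1.62 CPM in both.

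The genes of sterol efflux went the other way. Abca1 was at 48.3, 72.6 and 93.2 CPM in WT DP, against 6.05, 8.26 and 5.72 CPM in WT DN3 (log2 fold change 3.41 ± 0.25 SE, adjusted p = 7.27e-06). Abcg1 was at 338, 255 and 247 CPM in WT DP, against 105, 134 and 139.7 CPM in WT DN3 (log2 fold change 1.16 ± 0.20 SE, adjusted p = 0.000867). Srebf1 rose with them, to 227, 188 and 201 CPM in WT DP, against 112, 117 and 119 CPM in WT DN3 (log2 fold change 0.82 ± 0.15 SE, adjusted p = 0.00124). Srebf2, at 462, 291 and 316 CPM in WT DP and 278, 298 and 278 CPM in WT DN3, overlapped between the groups (log2 fold change 0.33 ± 0.21 SE, adjusted p = 0.198). All 23 calls held when any 1 of the 6 libraries was left out. The dividing-cell markers summed to 1734, 3645 and 3035 CPM in WT DP, against 1688, 1939 and 1562 CPM in WT DN3, the lowest WT DP sum lying inside the WT DN3 range and the others above it.

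**Figure D2:**
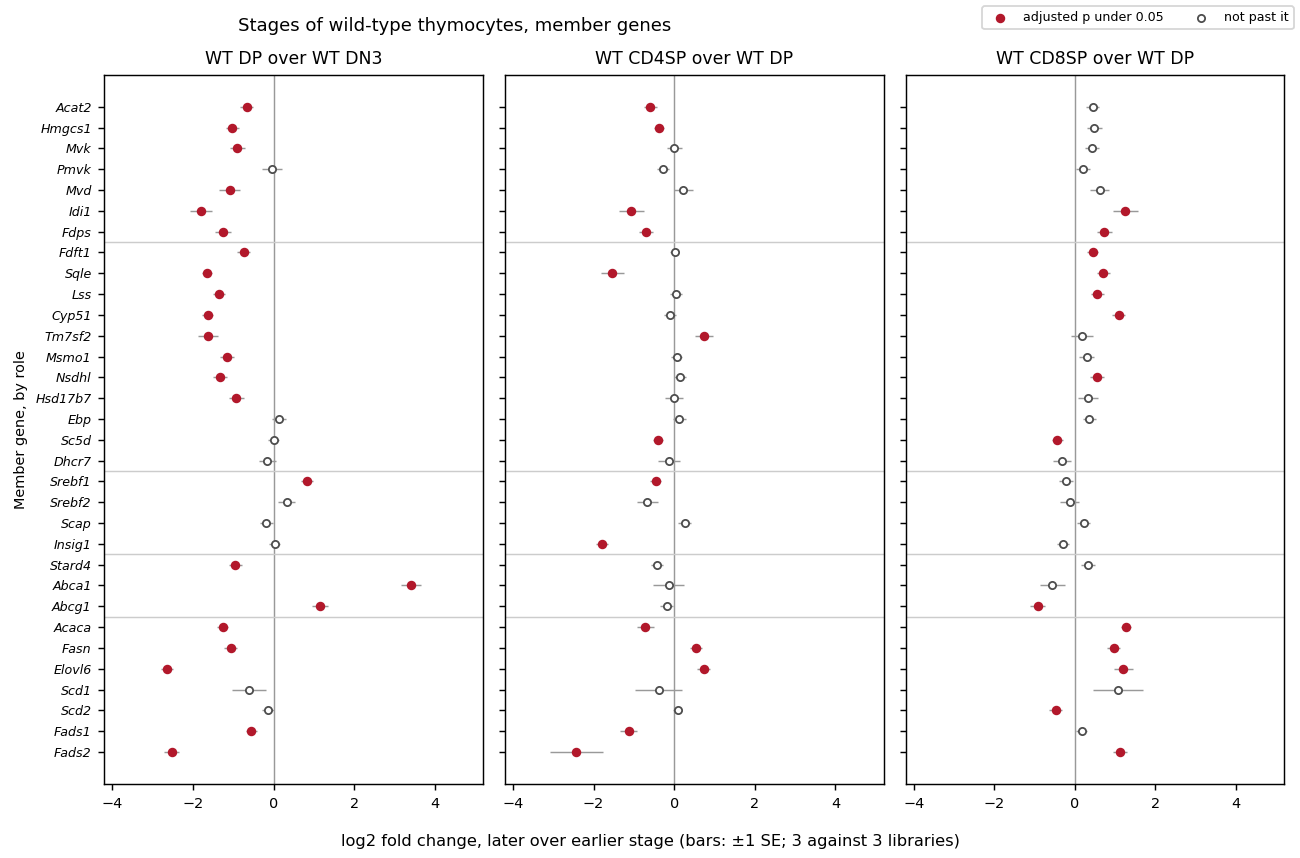
Log2 fold change (x axis, bars ±1 SE, 3 against 3 libraries) of each member (rows, by role) in WT DP over WT DN3, WT CD4SP over WT DP and WT CD8SP over WT DP; filled red points passed adjusted p under 0.05. Most enzymes lie left of 0 in the first panel, with Abca1 and Abcg1 right of it, and the CD4SP and CD8SP panels lean to opposite sides.

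Single-positive WT cells were followed next. In WT CD4SP over WT DP, 11 members fell and 3 rose, where 43.9% of 11923 genes were called (20.5% down and 23.4% up). Sqle was at 6.88, 4.51 and 10.4 CPM in WT CD4SP, against 20.6, 22.9 and 22.4 CPM in WT DP (log2 fold change -1.54 ± 0.29 SE, adjusted p = 0.00438). Insig1, the sterol-sensing brake on SREBP release and itself an SREBP target, was at 12.2, 9.96 and 11.9 CPM in WT CD4SP, against 34.6, 43.8 and 44.3 CPM in WT DP (log2 fold change -1.79 ± 0.14 SE, adjusted p = 9.34e-05). Neither gene's groups overlapped. Fads2 (-2.43), Fads1 (-1.13), Idi1 (-1.07), Acaca (-0.72), Fdps (-0.69), Acat2, a thiolase (-0.59), Srebf1 (-0.46) and Hmgcs1 (-0.39) also fell, in log2 fold change. By contrast Tm7sf2 (0.74), Elovl6 (0.73) and Fasn, fatty acid synthase (0.54) rose. Srebf2 (-0.67), Scd1 (-0.39), Scd2 (0.09), Abca1 (-0.14) and Abcg1 (-0.19) were not called. Dividing-cell markers summed to 469, 432 and 471 CPM in WT CD4SP, against 1734, 3645 and 3035 CPM in WT DP, and their part in the result was not tested. The number of members called was 5 without WT CD4SP replicate 1, 4 without WT CD4SP replicate 2, 8 without WT DP replicate 2 and 7 without WT DP replicate 3, and Sqle, Insig1, Fads1 and Elovl6 held in every fit that left out 1 library; the Fads2 value was -3.80 without WT CD4SP replicate 3.

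In WT CD8SP cells 11 members rose and 3 fell relative to WT DP, where 37.7% of 11691 genes were called (20.8% up and 16.9% down). Acaca was at 129, 135 and 126 CPM in WT CD8SP, against 54.8, 56.8 and 52.6 CPM in WT DP (log2 fold change 1.26 ± 0.13 SE, adjusted p = 0.00057). Idi1 was at 93.1, 94.8 and 62.9 CPM in WT CD8SP, against 19.7, 46.03 and 41.1 CPM in WT DP (log2 fold change 1.25 ± 0.31 SE, adjusted p = 0.0161). The groups did not overlap for either gene. Elovl6 (1.20), Fads2 (1.12), Cyp51 (1.09), Fasn (0.96), Fdps (0.73), Sqle (0.71), Lss (0.56) and Nsdhl (0.55) rose too, in log2 fold change. In turn Abcg1 (-0.93) and Scd2 (-0.48) fell. Hmgcs1 (0.48), Srebf1 (-0.22), Srebf2 (-0.13), Scd1 (1.07) and Abca1 (-0.56) were not called. The count was 6 without WT CD8SP replicate 1, 7 without WT CD8SP replicate 2, 9 without WT DP replicate 2 and 9 without WT DP replicate 3. Both comparisons share the WT DP libraries.

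Set directly against each other, in a comparison added after the values were seen, WT CD8SP cells were higher than WT CD4SP cells in 18 members and lower in 2, where 44.7% of 11859 genes were called (24.1% up and 20.6% down). Sqle was at 37.9, 41.1 and 27.6 CPM in WT CD8SP, against 6.88, 4.51 and 10.4 CPM in WT CD4SP (log2 fold change 2.31 ± 0.30 SE, adjusted p = 0.000729). Fads2 was at 42.2, 32.8 and 33.1 CPM in WT CD8SP, against 1.03, 1.28 and 6.71 CPM in WT CD4SP (log2 fold change 3.61 ± 0.66 SE, adjusted p = 0.00436). Every WT CD8SP library was above every WT CD4SP library for both. Idi1 (2.39), Acaca (2.04), Insig1 (1.55), Fdps (1.49), Fads1 (1.36), Cyp51 (1.26), Acat2 (1.09), Hmgcs1 (0.93) and Stard4 (0.82) followed, in log2 fold change, as did Srebf2 at 0.59. In turn Abcg1 (-0.68) and Scd2 (-0.51) were lower. Srebf1 (0.30), Scd1 (1.51) and Abca1 (-0.36) were not called. Dividing-cell markers summed to 2645, 3276 and 2634 CPM in WT CD8SP, against 469, 432 and 471 CPM in WT CD4SP, and their part in the result was not tested. The number of calls was 12 without WT CD4SP replicate 2, and 12 of them held whichever library was left out; the Fads2 value was 5.01 without WT CD4SP replicate 3.

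The effect of LMO2 was then read as TG over WT within each population. Srebf2 was called in 4 of the 6 populations. Its levels were 509, 544 and 512 CPM in TG DN3, against 278, 298 and 278 CPM in WT DN3 (log2 fold change 0.89 ± 0.10 SE, adjusted p = 0.000176). In the DN mixture they were 774, 567 and 701 CPM in TG, against 322, 337 and 436 CPM in WT (log2 fold change 0.85 ± 0.18 SE, adjusted p = 0.0258). Every TG library lay above every WT library in both populations, and the genotype effects, DN minus DN3, gave a difference of log2 fold changes of -0.03 ± 0.20 SE, adjusted p = 0.924. In CD4SP cells Srebf2 was at 563, 662 and 515 CPM in TG, against 204, 175 and 272 CPM in WT (log2 fold change 1.42 ± 0.23 SE, adjusted p = 0.0106). In CD8SP cells it was at 499, 666 and 633 CPM in TG, against 344, 256 and 367 CPM in WT (log2 fold change 0.90 ± 0.19 SE, adjusted p = 0.0461). DP cells overlapped, at 577, 829 and 424 CPM in TG and 462, 291 and 316 CPM in WT (log2 fold change 0.78 ± 0.28 SE, adjusted p = 0.214). DN1 cells held 263, 253 and 222 CPM in TG and 245 CPM in the WT library. The call held with any 1 library left out in DN3 cells, in 2 of 6 such fits in DN, in 4 of 6 in CD4SP and in 0 of 6 in CD8SP.

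**Figure D3:**
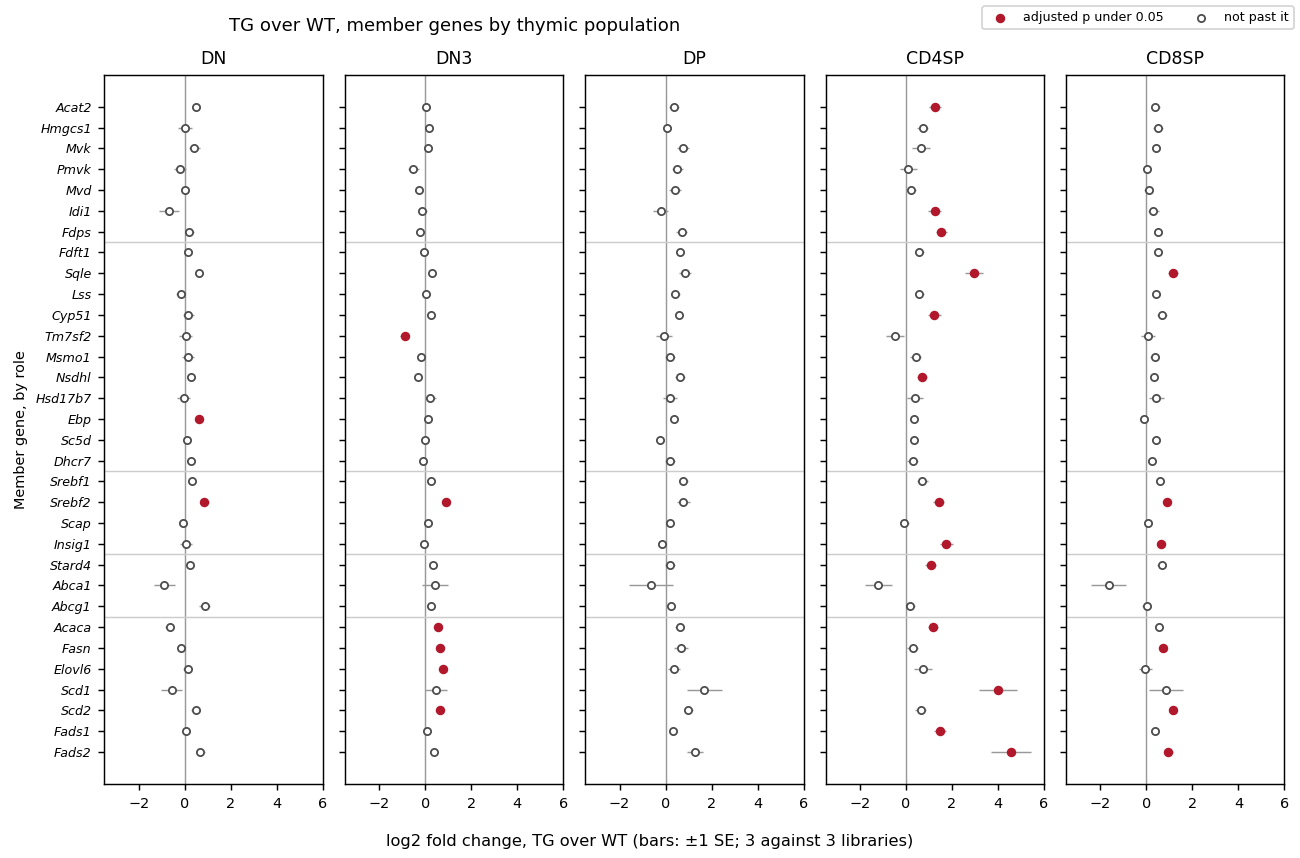
Log2 fold change of TG over WT (x axis, bars ±1 SE, 3 against 3 libraries) for each member (rows, by role) in 5 thymic populations (panels); filled red points passed adjusted p under 0.05. Srebf2 is filled in DN, DN3, CD4SP and CD8SP, no member is filled in DP, and the points farthest right are Fads2, Scd1 and Sqle in CD4SP. Scd1 entered the CD4SP test with the help of the TG libraries.

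In DN3 cells 5 members rose and 1 fell in TG, where 45.7% of 12037 genes were called (23.4% up and 22.2% down), a smaller share of the members than of all genes. Beside Srebf2, the genes that rose were of fatty acid synthesis, 4 of 7. Elovl6 was at 150.2, 108 and 128 CPM in TG, against 80.5, 81.4 and 70.3 CPM in WT (log2 fold change 0.75 ± 0.13 SE, adjusted p = 0.00215). Fasn was at 645, 668 and 518 CPM in TG, against 367, 458 and 374 CPM in WT (log2 fold change 0.63 ± 0.14 SE, adjusted p = 0.0058). Scd2 was at 1258, 1195 and 1124 CPM in TG, against 766, 843 and 748 CPM in WT (log2 fold change 0.62 ± 0.11 SE, adjusted p = 0.00184). Acaca also rose (log2 fold change 0.54 ± 0.14 SE, adjusted p = 0.015), and no library of one genotype crossed into the range of the other for these 4 genes. Of the 18 cholesterol enzymes the single call was Tm7sf2, which was at 5.14, 6.73 and 6.51 CPM in TG, against 12.7, 9.01 and 13.1 CPM in WT (log2 fold change -0.90 ± 0.21 SE, adjusted p = 0.00734). Their median log2 fold change was -0.03, against -0.03 over all genes. Sqle (0.29), Hmgcs1 (0.18), Srebf1 (0.23), Scd1 (0.45), Abca1 (0.41) and Abcg1 (0.26) were not called. The count of calls was 12 without TG DN3 replicate 3 and 10 without WT DN3 replicate 2; 5 of the 6 held in every such fit and Acaca in 5 of 6. Dividing-cell markers summed to 1539, 2320.0 and 958 CPM in TG, against 1688, 1939 and 1562 CPM in WT.

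Sums over markers listed for other cell types also differed in the DN3 and DN comparisons. The 6 thymic stroma markers summed to 293, 206 and 314 CPM in TG DN3, against 153, 174 and 183 CPM in WT DN3, and to 339, 199 and 233 CPM in TG DN, against 132, 118 and 155 CPM in WT DN, with no overlap in either. Most of the DN3 sums was 1 gene, the adhesion gene Pecam1, at 278, 196 and 291 CPM in TG DN3, against 97.2, 122 and 125 CPM in WT DN3. The DN sums are not broken down by gene here. Epcam, an epithelial gene, ran the other way, at 14.9, 10.02 and 22.1 CPM in TG DN3, against 54.3, 51.4 and 57.6 CPM in WT DN3, and Krt5, Krt8, Pdgfra and Col1a1 were under 1 CPM in each DN3 library. B cell markers summed to 8.91, 12.1 and 14.5 CPM in TG DN3, against 35.2, 25.3 and 34.7 CPM in WT DN3, and macrophage and granulocyte markers to 5.002, 8.302 and 5.13 CPM in TG DN3, against 13.4, 17.4 and 18.7 CPM in WT DN3. The part of these markers in the results was not tested.

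In the DN mixture 2 members rose in TG and 0 fell, where 12.4% of 12509 genes were called (7.47% up and 4.89% down). Ebp, which shifts a double bond late in cholesterol synthesis, was at 48.98, 39.7 and 49.4 CPM in TG, against 31.4, 27.9 and 27.6 CPM in WT (log2 fold change 0.62 ± 0.15 SE, adjusted p = 0.0353). Sqle had 105, 127 and 91.00 CPM in TG and 79.98, 64.3 and 59.6 CPM in WT, without overlap but not called (log2 fold change 0.62 ± 0.18 SE, adjusted p = 0.0645). Scd2 (0.46), Abcg1 (0.86), Srebf1 (0.30), Hmgcs1 (0.00), Scd1 (-0.58) and Abca1 (-0.89) were not called either. The count was 0 without TG DN replicate 1 or 3 or WT DN replicate 1 or 2, 1 without WT DN replicate 3, which carries the red-cell RNA, and 6 without TG DN replicate 2.

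Acaca and Fasn differed between the DN and DN3 populations in their response to genotype. DN is a mixture, and its 9 markers of sorting and stage also differed by genotype (Cd4, Cd8a, Cd8b1, Il2ra, Rag1, Rag2, Ptcra, Ccr7 and S1pr1). These summed to 623, 1355 and 749 CPM in TG DN, against 1415, 1530 and 2175 CPM in WT DN, without overlap. Their part in the result was not tested. Acaca was at 129, 172 and 123 CPM in TG DN, against 198, 189.7 and 257 CPM in WT DN, all TG libraries lying below WT. It was at 199, 214 and 152 CPM in TG DN3, against 128, 148 and 118 CPM in WT DN3, all TG libraries lying above WT. The genotype effects, DN minus DN3, gave a difference of log2 fold changes of -1.18 ± 0.25 SE, adjusted p = 0.0287. Fasn was at 517, 543 and 631 CPM in TG DN and 572, 614 and 643 CPM in WT DN, which overlapped. Its effects gave a difference of log2 fold changes of -0.78 ± 0.19 SE, adjusted p = 0.0423. This interaction was added after the values were seen and called 2 of 32 members, a share near the 6.02% of 12880 genes called. Acaca held in 5 and Fasn in 4 of 12 fits that left out 1 library. The count of members was 7 without TG DN replicate 2, 4 without WT DN3 replicate 2, 1 without TG DN replicate 1 and 0 without TG DN replicate 3, WT DN replicate 2 or 3, TG DN3 replicate 1 or 2, or WT DN3 replicate 1 or 3.

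No member, and none of 11649 genes (0%), was called in DP cells by edgeR. DESeq2 called 3 members, where it called 5.32% of genes (2.82% up and 2.5% down). The log2 fold change was positive in 27 of 32 members, with a median of 0.39, against a median of 0.03 over all genes. The share of all genes with a positive value is not given here. Scd2 was at 1489, 1754 and 1014 CPM in TG, against 719, 709 and 709.6 CPM in WT (log2 fold change 0.99 ± 0.21 SE, adjusted p = 0.213). Sqle was at 38.7, 54.2 and 26.1 CPM in TG, against 20.6, 22.9 and 22.4 CPM in WT (log2 fold change 0.85 ± 0.26 SE, adjusted p = 0.213). In both, the library labelled TG DP replicate 3, where Lmo2 was at the WT level, was the lowest of its group. Without it 8 members were called, 7 up and 1 down, where 7.6% of genes were (4.77% up and 2.83% down). Those higher were Fads2 (1.56), Scd2 (1.17), Sqle (1.07), Fasn (0.96), Srebf1 (0.92), Fdps (0.87) and Acaca (0.80), in log2 fold change, with Srebf2 at 0.97 not called. Abca1 was the member that fell: 7.29 and 9.89 CPM in TG DP replicates 1 and 2 and 120.2 CPM in replicate 3, against 48.3, 72.6 and 93.2 CPM in WT, which did not overlap with replicates 1 and 2. Its log2 fold change was -3.07 without replicate 3 and -0.62 with it. Hmgcs1 (0.04), Scd1 (1.68) and Abcg1 (0.25) were not called in either fit. Between DP and DN3 no member's genotype effect differed by edgeR's test, where 10.2% of genes did. By DESeq2 2 members differed, and its share of all genes is not given here. The edgeR count of members was 8 without TG DP replicate 3, where 20.5% of genes were called. It was 1 without TG DP replicate 2, 2 without WT DP replicate 1 and 4 without WT DN3 replicate 2.

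**Figure D4:**
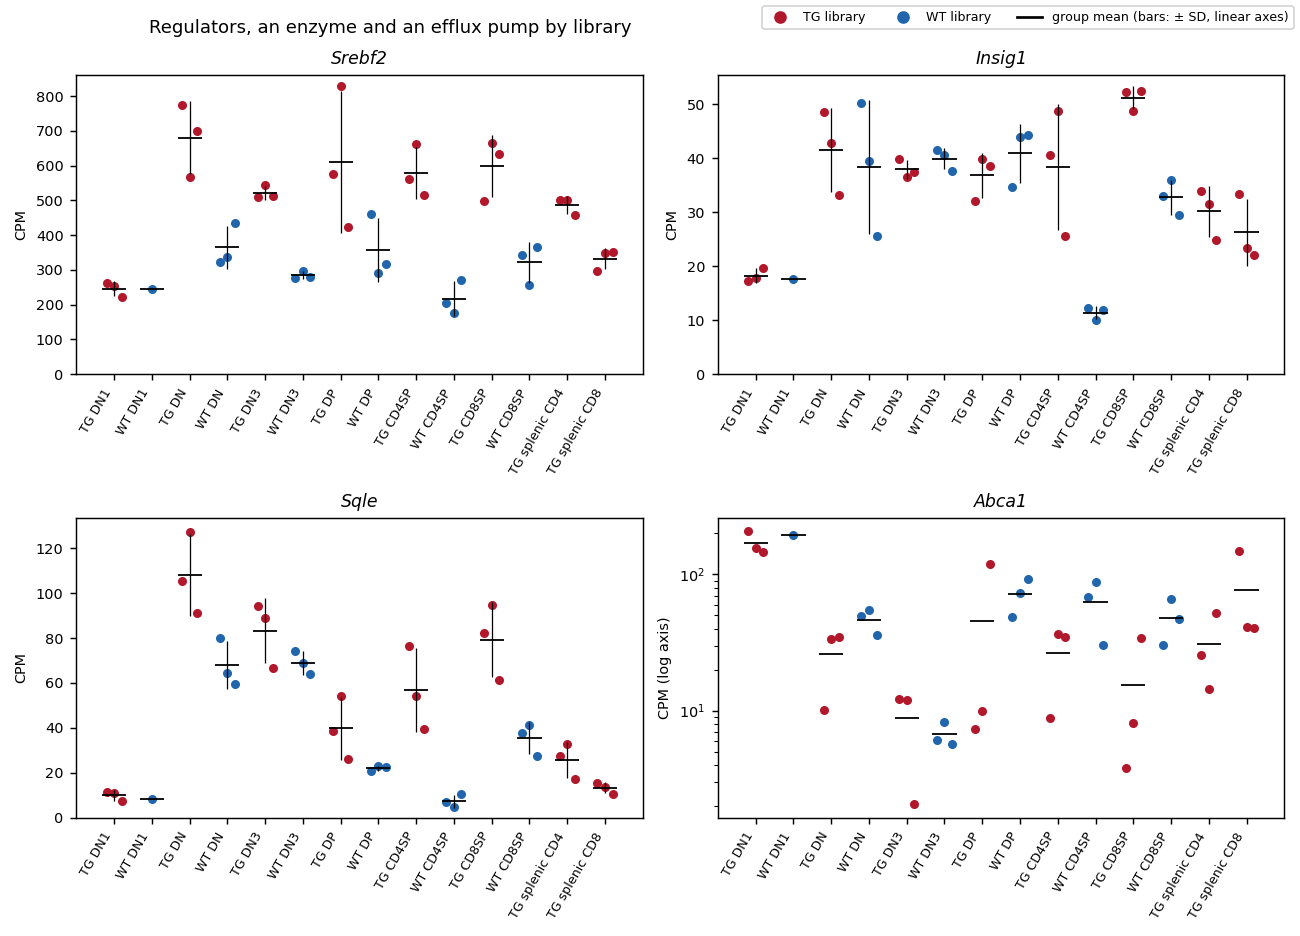
CPM of Srebf2, Insig1 and Sqle (linear axes) and Abca1 (log axis) in each library, by group; red points are TG and blue points WT libraries, lines are group means and bars ± SD on the linear axes. Srebf2 is higher in every TG than WT library of DN, DN3, CD4SP and CD8SP cells, Insig1 and Sqle are lowest in WT CD4SP among thymic populations past DN1, and 1 TG DP library holds Abca1 above the WT DP libraries while the other two lie below them.

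In CD4SP cells 13 members rose and 0 fell in TG, where 25.9% of 12073 genes were called (15% up and 11% down). The median log2 fold change of the members was 0.67, against 0.05 over all genes. Fads2 was at 115, 36.2 and 61.2 CPM in TG, against 1.03, 1.28 and 6.71 CPM in WT (log2 fold change 4.56 ± 0.85 SE, adjusted p = 0.0147). Sqle was at 76.6, 54.1 and 39.6 CPM in TG, against 6.88, 4.51 and 10.4 CPM in WT (log2 fold change 2.96 ± 0.38 SE, adjusted p = 0.00748). Insig1 was at 40.6, 48.6 and 25.7 CPM in TG, against 12.2, 9.96 and 11.9 CPM in WT (log2 fold change 1.76 ± 0.26 SE, adjusted p = 0.0094). In each of these the lowest TG library exceeded the highest WT library by more than the WT libraries' own range. Scd1 was at 12.1, 2.67 and 16.4 CPM in TG, against 0.459, 0.3502 and 1.13 CPM in WT, where 1 of the 3 WT libraries held fewer than 10 Scd1 counts. The WT libraries by themselves would not have passed the filter on low counts, so Scd1 entered this test with the help of the TG libraries. It is among the 13 members counted as having risen, and its levels are given with no fold or p. Fdps (1.53), Fads1, the delta-5 desaturase (1.48), Acat2 (1.26), Idi1 (1.26), Cyp51 (1.23), Acaca (1.18) and Stard4 (1.08) rose as well, in log2 fold change. Hmgcs1 (0.73), Srebf1 (0.71), Scd2 (0.63), Abcg1 (0.19) and Abca1 (-1.21) were not called.

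Beside this result, the 10 dividing-cell markers summed to 2672, 3510.2 and 1177 CPM in TG CD4SP, against 469, 432 and 471 CPM in WT CD4SP, none of them at 0, and each TG CD4SP library carried markers of another stage. The 8 B cell markers summed to 30.8, 22.7 and 71.5 CPM in TG CD4SP, against 4.395, 3.54 and 6.42 CPM in WT CD4SP, with no marker at 0 and every TG library above every WT library. The part of these markers in the result was not tested. The macrophage and granulocyte markers summed to 113, 39.1 and 194 CPM in TG CD4SP, against 122, 118 and 91.2 CPM in WT CD4SP. The count of calls was 0 without WT CD4SP replicate 1, in a fit that called 0.304% of all genes (0.24% up and 0.064% down). It was 1 without WT CD4SP replicate 2 and 8 without WT CD4SP replicate 3, and between 13 and 16 when a TG library was left out. Scd1 was not called with a term for the unexplained column suffix N. A fit with TG CD4SP replicates 1 and 3 both left out rests on 1 TG library, replicate 2, which had the highest Cd8a and Rag1 of the group, and the lone library is assumed to vary like the WT libraries. That fit gave a log2 fold change of 3.61 for Fads2 and is no check on the group. Without WT CD4SP replicate 3 the log2 fold change of Fads2 was 5.92.

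In CD8SP cells 6 members rose and 0 fell in TG, where 4.45% of 11697 genes were called (2.09% up and 2.36% down). Scd2 was at 1126, 1135 and 1156 CPM in TG, against 454, 534 and 527 CPM in WT (log2 fold change 1.17 ± 0.14 SE, adjusted p = 0.0122). Sqle was at 82.2, 94.6 and 61.2 CPM in TG, against 37.9, 41.1 and 27.6 CPM in WT (log2 fold change 1.16 ± 0.22 SE, adjusted p = 0.0321). Fads2 was at 72.9, 81.6 and 54.00 CPM in TG, against 42.2, 32.8 and 33.1 CPM in WT (log2 fold change 0.95 ± 0.20 SE, adjusted p = 0.0426). None of these overlapped between genotypes, nor did Fasn (0.74) or Insig1 (0.65), which rose too. Srebf1 (0.57), Hmgcs1 (0.50), Scd1 (0.86), Abca1 (-1.65) and Abcg1 (0.01) were not called. The count was 0 without WT CD8SP replicate 1 or 2, the fit without replicate 2 calling 0.0755% of all genes (0.0587% up and 0.0168% down). It was 1 without TG CD8SP replicate 1 or 2 or WT CD8SP replicate 3. Dividing-cell markers summed to 4559, 5036 and 2668 CPM in TG, against 2645, 3276 and 2634 CPM in WT, and their part was not tested.

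Of differences between the genotype effects of CD8SP and CD4SP cells edgeR called 0 members (0.032% of all genes). DESeq2 called 4, and its share of all genes is not given here. The widest difference, CD8SP minus CD4SP, was that of Fads2 (a difference of log2 fold changes of -3.59 ± 0.86 SE, adjusted p = 0.0883). The count was 4 without TG CD4SP replicate 3 and 1 without WT CD4SP replicate 3. DN1 cells, with 1 WT library, gave 0 of 14845 genes (0%) by edgeR and 0 members by edgeR and by DESeq2, and 1 member with an unadjusted p under 0.05, Scd2, at 652, 670.3 and 423 CPM in TG and 350.4 CPM in WT. There the spread of the WT library is taken from the other groups. Srebf1 (0.19), Hmgcs1 (0.24), Sqle (0.25), Scd1 (-1.08), Abca1 (-0.19) and Abcg1 (0.17) were not called in DN1; the values are log2 fold changes.

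Leaving the thymus, TG splenic CD8 cells held less of most of the set than TG CD8SP thymocytes: 17 members fell and 1 rose, where 37.3% of 12185 genes were called (20.1% down and 17.2% up). Fads2 was at 1.99, 1.06 and 1.59 CPM in spleen, against 72.9, 81.6 and 54.00 CPM in thymus (log2 fold change -5.52 ± 0.34 SE, adjusted p = 0.000537). Scd2 was at 154, 109 and 121 CPM in spleen, against 1126, 1135 and 1156 CPM in thymus (log2 fold change -3.21 ± 0.22 SE, adjusted p = 0.000537). Sqle was at 15.6, 13.4 and 10.7 CPM in spleen, against 82.2, 94.6 and 61.2 CPM in thymus (log2 fold change -2.64 ± 0.25 SE, adjusted p = 0.00104). The spleen and thymus libraries did not overlap for any of the 3. Fads1 (-2.25), Idi1 (-2.02), Fdps (-1.92), Acat2 (-1.62), Cyp51 (-1.44), Dhcr7 (-1.31), Acaca (-1.30), Fdft1 (-1.21), Hmgcs1 (-1.13), Srebf1 (-0.97) and Srebf2 (-0.90) fell, in log2 fold change. Abca1 (2.28) and Abcg1 (0.13) were not called. Dividing-cell markers summed to 346, 213 and 148 CPM in spleen, against 4559, 5036 and 2668 CPM in thymus. Markers of other cell types ran the opposite way. B cell markers summed to 4376, 963 and 658 CPM in spleen, against 10.4, 10.97 and 28.98 CPM in thymus, and macrophage and granulocyte markers to 3592, 277 and 303 CPM in spleen, against 12.7, 53.6 and 28.1 CPM in thymus. The part of these markers was not tested. TG splenic CD8 replicate 1 stood apart, with Cd8a at 416 CPM beside 1475 and 1466 CPM in the other splenic CD8 libraries, and without it 21 members were called. Of the 18 calls, 12 held whichever library was left out. The Srebf2 call held in 3 of 6 such fits and the Srebf1 call in 1 of 6.

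In TG splenic CD4 cells over TG CD4SP thymocytes 7 members fell and 1 rose, where 24.5% of 12578 genes were called (12% down and 12.5% up). Each TG CD4SP library carried markers of another stage, as given above, and their part in this result was not tested. Fads2 was at 4.53, 3.69 and 2.48 CPM in spleen, against 115, 36.2 and 61.2 CPM in thymus (log2 fold change -4.34 ± 0.52 SE, adjusted p = 0.00814). Scd2 was at 166, 165 and 113 CPM in spleen, against 894, 1417 and 1050.5 CPM in thymus (log2 fold change -2.93 ± 0.26 SE, adjusted p = 0.00473). Both calls held in every fit that left out 1 library. Fads1 (-1.47), Acat2 (-1.25), Sqle (-1.16), Abcg1 (-0.90) and Dhcr7 (-0.84) fell, in log2 fold change. Hmgcs1 (-0.60), Srebf1 (-0.69), Srebf2 (-0.26) and Abca1 (0.21) were not called. The count was 2 without TG splenic CD4 replicate 1, 3 without replicate 2 and 4 without replicate 3, the library with red-cell RNA. Dividing-cell markers summed to 413, 381 and 141 CPM in spleen, against 2672, 3510.2 and 1177 CPM in thymus, and B cell markers to 1244, 659.7 and 2264 CPM in spleen, against 30.8, 22.7 and 71.5 CPM in thymus. Their part was not tested. TG splenic CD8 over TG splenic CD4 gave 0 members called by edgeR (0.491% of genes). DESeq2 called 2, and its share of all genes is not given here. The edgeR count was 2 without TG splenic CD8 replicate 1. Srebf2 was at 298, 349 and 351 CPM in splenic CD8 and 500.0, 503 and 458 CPM in splenic CD4 cells (log2 fold change -0.54 ± 0.16 SE, adjusted p = 0.199).

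Scd1 and Scd2, both stearoyl-CoA desaturases, insert the first double bond into saturated fatty acids, and their levels ran in opposite directions between thymus and spleen. Scd2 was at 1489, 1754 and 1014 CPM in TG DP and 719, 709 and 709.6 CPM in WT DP cells, where Scd1 was at 1.02, 5.997 and 1.51 CPM in TG and 1.34, 0.448 and 0.852 CPM in WT. In TG splenic CD8 cells Scd1 was at 699, 151 and 79.8 CPM (log2 fold change 6.50 ± 1.15 SE, adjusted p = 0.00726, over TG CD8SP at 1.43, 6.496 and 2.05 CPM), and in TG splenic CD4 cells at 168, 75.9 and 322 CPM (log2 fold change 4.18 ± 0.83 SE, adjusted p = 0.0183, over TG CD4SP). In DN1 cells Scd1 was at 187, 89.5 and 90.6 CPM in TG and 258 CPM in WT, and in DN cells at 12.8, 44.3 and 32.8 CPM in TG and 56.7, 46.2 and 26.5 CPM in WT. Scd1 was thus high in spleen and DN1 and lowest in DN3 and the later thymic populations. The 10 macrophage and granulocyte markers, all in the table, moved with Scd1. Their sum was 3592, 277 and 303 CPM in TG splenic CD8, 917, 748 and 3619 CPM in TG splenic CD4, 687, 444 and 849.7 CPM in TG DN1 and 736 CPM in WT DN1, against 12.7, 53.6 and 28.1 CPM in TG CD8SP and 113, 39.1 and 194 CPM in TG CD4SP, where 3 or 4 of the 10, drawn from S100a8, S100a9, Mpo and Elane, were at 0 in each library. The 8 B cell markers, whose sums in these spleen and thymus groups are given above, were likewise high in DN1, at 1098, 730.2 and 845 CPM in TG and 1690.1 CPM in WT. In both splenic groups the library with the highest sum of either marker list also had the highest Scd1, and the part of these cells in the Scd1 level was not tested. The Scd1 call in CD8 cells held whichever library was left out, with a log2 fold change of 5.06 without TG splenic CD8 replicate 1 and 7.56 without TG CD8SP replicate 2. In CD4 cells it was 3.53 without TG splenic CD4 replicate 3, and the call was lost without TG CD4SP replicate 1 or TG splenic CD4 replicate 1. Scd2 did not follow these markers, being lowest in the splenic groups.

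**Figure D5:**
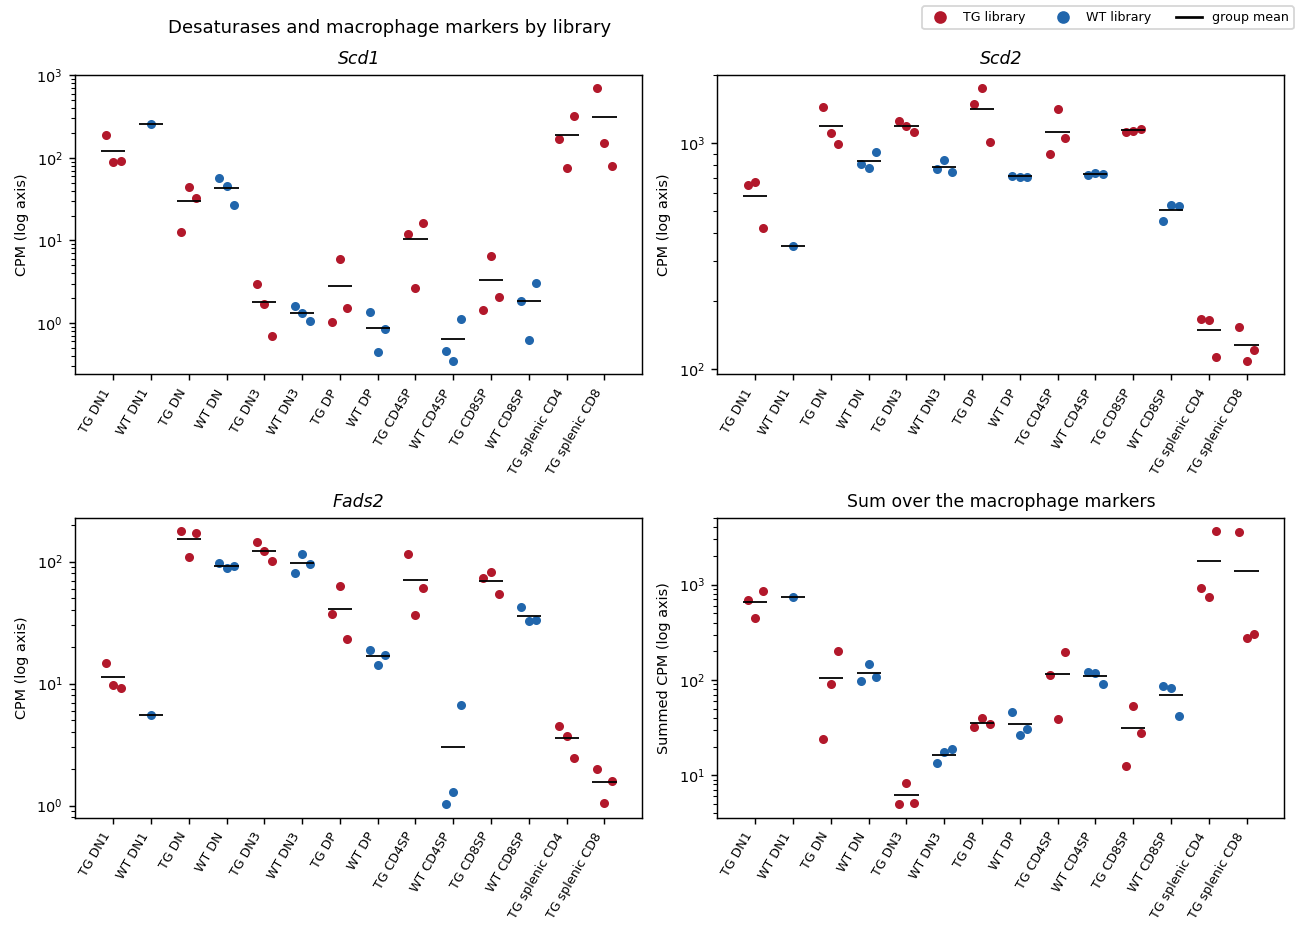
CPM of Scd1, Scd2 and Fads2 and the summed CPM of 10 macrophage and granulocyte markers (log axes) in each library, by group; red points are TG and blue points WT libraries and lines are group means. Scd1 is high where the marker sum is high, in DN1 and spleen, and Scd2 and Fads2 are low in spleen.

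Other genes of lipid metabolism were counted from a list of 36, of which between 31 and 36 passed the filter on low counts. In DN3 cells 11 of 33 tested rose and 1 fell in TG, a smaller share than the 45.7% of all genes called. In DN 7 of 36 rose and 1 fell, beside 12.4% of all genes called. In DP 0 of 32 were called, beside 0% of all genes. In CD4SP 8 of 34 rose and 5 fell, beside 25.9% of all genes called. In CD8SP 2 of 31 rose and 0 fell, beside 4.45%. Ppara, the fatty-acid-sensing receptor that drives fatty acid oxidation, was near absent in WT and detected in TG cells of the DN3, DN, CD4SP and CD8SP populations. From the lowest to the highest library its levels were 6.02, 7.25 and 7.27 CPM in TG DN3, against 0, 0.113 and 0.145 CPM in WT DN3. They were 5.13, 7.45 and 7.75 CPM in TG DN, against 0, 0.0335 and 0.0696 CPM in WT DN. CD4SP cells held 0.779, 3.04 and 5.46 CPM in TG, against 0, 0.0419 and 0.0764 CPM in WT. CD8SP cells held 1.22, 2.14 and 2.71 CPM in TG, against 0.0434, 0.0739 and 0.144 CPM in WT. Each library of these 4 WT groups held at most 4 Ppara counts, under the minimum of 10, so Ppara entered each test through the TG libraries alone. It is among the genes counted above as having risen, and its levels are given with no fold or p.

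Further values of this list are likewise given from the lowest to the highest library. Pparg, the adipogenic receptor, rose in TG DN3 (log2 fold change 1.65 ± 0.26 SE, adjusted p = 0.00135) and TG DN (log2 fold change 2.23 ± 0.39 SE, adjusted p = 0.0143). Acacb, an acetyl-CoA carboxylase of mitochondria, rose in both (1.90 in DN). Its levels were 8.39, 9.35 and 10.4 CPM in TG DN3, against 2.28, 2.36 and 2.41 CPM in WT DN3 (log2 fold change 2.01 ± 0.19 SE, adjusted p = 8.53e-05). Insig2, which retains SREBPs as Insig1 does, rose to 26.8, 31.9 and 32.9 CPM in TG DN3, against 16.9, 17.7 and 18.1 CPM in WT DN3 (log2 fold change 0.82 ± 0.12 SE, adjusted p = 0.00104). Mylip, an LXR target gene, rose in TG DN3 (log2 fold change 1.27 ± 0.17 SE, adjusted p = 0.00051). Soat1, which esterifies cholesterol, fell to 30.8, 30.8 and 30.9 CPM in TG DN3, against 61.2, 61.4 and 87.4 CPM in WT DN3 (log2 fold change -1.16 ± 0.15 SE, adjusted p = 0.000465). Acly, the source of cytosolic acetyl-CoA, rose in TG DN3 (log2 fold change 0.57 ± 0.11 SE, adjusted p = 0.00394). So did Lpin1, a phosphatidate phosphatase, Elovl5, an elongase, Cpt1a, which admits fatty acids to mitochondria, the receptor gene Ppard and the acyltransferase gene Soat2, with log2 fold changes of 1.20, 0.44, 0.64, 0.61 and 1.5. In the DN mixture Insig2 (0.78), Mylip (0.70), Mcat, of mitochondrial fatty acid synthesis (0.70), and Plin2, a lipid droplet coat protein (1.10), rose and Soat1 (-1.02) fell. CD4SP cells of TG mice had more Mid1ip1, which activates acetyl-CoA carboxylase, at 14.7, 16.96 and 26.6 CPM, against 1.87, 3.096 and 3.23 CPM in WT (log2 fold change 2.83 ± 0.36 SE, adjusted p = 0.00737). They also had more Nr1h3, an LXR receptor (1.97), Plin2 (1.48), Fabp5 (1.28), Acsl3 (1.10) and Mcat (0.94) and less Acsl4 (-1.36), Npc2 (-0.84), Mbtps2 (-0.81), Ggps1 (-0.72) and Hacd2 (-0.67), in log2 fold change. Pparg was counted as having risen there too, at 0.594, 3.92 and 9.86 CPM in TG, against 0.153, 0.156 and 0.377 CPM in WT, where each WT library held at most 9 counts and the gene entered the test through the TG libraries alone. In CD8SP cells the gene counted beside Ppara was Acsl3, which activates long-chain fatty acids (log2 fold change 0.80 ± 0.13 SE, adjusted p = 0.0249).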

How the data were processed

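RNA was measured in 40 libraries, for which the authors deposited whole-number read counts per gene, and beside them FPKM values. Builds mm9 and mm10 and the tools MACS2, Bowtie2, DESeq2 and HISAT appear in the submitters' processing notes, without roles or versions. How reads were counted, and whether by strand, is not stated in these sources. Anti-LMO2 peak lists of the series were not used here, and 4 columns, 2 of them counts, belong to samples not analysed here. The names of 12 count columns end in an unexplained letter N.

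The test of these deposited counts was that of edgeR 4.0.16 (R 4.3.3), with filterByExpr (minimum count 10, minimum total 15), TMM scaling, the robust quasi-likelihood test, two-sided, and Benjamini-Hochberg adjustment over all genes, with a threshold of 0.05. Each comparison was fitted on the libraries of its own groups, interactions on 12 libraries and DN1 on all 40. CPM used TMM over the 40 libraries, and the deposited FPKM were used only to compare levels between genes. Precision is limited by the spread of 3 libraries per group. In simulated counts of the DN3 comparison (12037 genes) the test recovered 72% of 100 genes changed 2-fold and 94% of 100 changed 4-fold, and in the CD4SP comparison (12073 genes) 4% and 63%. Of the calls made, 18 of 184 were false in the simulated DN3 comparison and 4 of 71 in the CD4SP one. The deposited counts gave calls for 45.7% of genes in DN3 and 25.9% in CD4SP. Recovery where so large a share of genes changes was not tested.

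The members and lists were chosen with earlier results of these data known. Named genes were the called members, of which the 12 with the largest change where there were more, together with Srebf1, Srebf2, Hmgcs1, Sqle, Scd1, Scd2, Abca1 and Abcg1, and the called genes of the list of other lipid genes. Genes named for correlations or FPKM were chosen after their values were seen. Alternatives were other size factors, no filter, DESeq2 1.42.0, a replicate block, one fit of all libraries, leaving out each library and, added after seeing the data, a term for the suffix N and a fit without TG CD4SP replicates 1 and 3, which keeps replicate 2 as the single TG library.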

Additional observations from a re-analysis of the deposited data

Results flagged for a closer look

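Acaca, the acetyl-CoA carboxylase that opens fatty acid synthesis, stood out because every TG library of DN cells lay below every WT library, while in 4 other thymic populations every TG library lay above every WT library. The DN cells are a mixture whose stage markers also differed by genotype, as given above. The highest WT DN library for Acaca was replicate 3, which carries the red-cell RNA. Among the 4 populations is DP, where TG DP replicate 3 held Lmo2 at the WT level. The TG over WT log2 fold changes of the separate edgeR fits differed by 1.19 for DN3 minus DN and -1.27 for DN minus DP. They differed by -1.83 for DN minus CD4SP and -1.19 for DN minus CD8SP. These differences between separate fits were not tested. In 1 joint fit of the 12 libraries, the test of DN minus DN3 gave a difference of log2 fold changes of -1.18 for Acaca. All 3 libraries of each genotype lay apart in both populations. The same test gave -0.78 for Fasn, whose genotypes overlapped in DN cells and not in DN3 cells. Both passed edgeR's quasi-likelihood test after Benjamini-Hochberg adjustment over all genes, in an interaction added after these values were seen. Acaca held in 5 and Fasn in 4 of 12 fits that left out 1 library, and the 2 of 32 members called are a share near the 6.02% of all genes called.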

How the results depend on the processing

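All 126 called values of the members kept their direction under their 1535 alternatives, of which 1266 stayed past the threshold and 269 did not. The alternatives refit the same libraries, for values chosen because they were called, so a kept direction is a weak check. Calls kept in every fit leaving out 1 library were 23 of 23 in WT DP over WT DN3 and 5 of 6 in DN3. They were 0 of 13 in CD4SP, 0 of 6 in CD8SP and 0 of 2 in DN. One fit of all 40 libraries gave 3 members called in DN3, 4 in DN, 5 in DP, 3 in CD8SP, 15 in TG splenic CD4 over TG CD4SP and 4 in TG splenic CD8 over TG splenic CD4. DESeq2 gave 6 in DN, 3 in DP, 10 in CD8SP, 2 in TG splenic CD8 over TG splenic CD4, 2 for the difference between DP and DN3 and 4 for the difference between CD8SP and CD4SP. The term for the suffix N left 0 in DN. With a replicate block 7 were called in WT CD4SP over WT DP, 5 in TG splenic CD4 over TG CD4SP and 2 for the difference between DP and DN3. Correlations of the deviations of same-numbered libraries ran between -0.525 and 0.619, and in 0 of 12 comparisons were all pairs above 0.1. With 3 libraries per group they cannot show whether equal replicate numbers mark a shared animal or day. In DP the share of all genes called moved too, at 0% by edgeR and 5.32% by DESeq2. Shares of all genes are not given here for the other fits of this paragraph, so its counts are not read as results about the members. For these moved counts the cause was not tested.

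Leaving out 1 library at a time gave between 5 and 12 members called in DN3, 0 and 6 in DN, 0 and 8 in DP, 0 and 16 in CD4SP, 0 and 6 in CD8SP and 0 in every such fit of DN1. The ranges were 23 to 26 in WT DP over WT DN3, 4 to 17 in WT CD4SP over WT DP, 6 to 19 in WT CD8SP over WT DP, 12 to 22 in WT CD8SP over WT CD4SP, 2 to 11 in TG splenic CD4 over TG CD4SP, 12 to 21 in TG splenic CD8 over TG CD8SP and 0 to 2 in TG splenic CD8 over TG splenic CD4. They were 0 to 8 for the difference between DP and DN3, 0 to 4 for that between CD8SP and CD4SP and 0 to 7 for that between DN and DN3. The share of all genes called moved in such fits too. It was 7.6% in DP without TG DP replicate 3, against 0% with it. In CD4SP it was 0.304% without WT CD4SP replicate 1, against 25.9% with it. The ranges are therefore not read as results about the members alone.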
